A study of Mus musculus with 6 samples.

Results

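Genes for fatty acid-binding proteins and for lipid uptake and storage were compared between GPS2KO and WT macrophages. They were Fabp3, Fabp4, Fabp5, Cd36, Lpl, Plin2 and Angptl4, chosen by name as genes that respond to peroxisome proliferator-activated receptors (PPARs). The choice was made with earlier results of these data known. All 7 were measured among 18820 tested genes. They had 10 probe sets, each with 1 gene symbol, and the brightest probe set by mean over the 6 arrays represented its gene. The cells were bone marrow-derived macrophages of male mice aged 12 to 16 weeks. The GPS2KO mice carried a knockout of Gps2, called GPS2KO or MKO in the labels, and the controls were wild type (WT). The labels call it a macrophage knockout but name neither the deleted exons nor a Cre driver, and they do not say whether each array had its own animal. Marrow cells of both groups were differentiated for 7 days with 30% medium conditioned by L929 fibroblasts and received no stimulus. RNA of each of the 6 samples, 3 GPS2KO and 3 WT, was hybridised to 1 Affymetrix array.

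Fatty acid-binding proteins are small soluble proteins that hold fatty acids and ferry them through the cytoplasm and into the nucleus. CD36 on the cell surface takes up long-chain fatty acids and oxidised lipoproteins, and lipoprotein lipase (LPL) frees fatty acids from triglyceride-rich particles. Fatty acids inside the cell can activate PPARs, which bind DNA as heterodimers with retinoid X receptors (RXRs) and recruit co-repressors or co-activators. GPS2 works in such a co-repressor complex, together with the histone deacetylase HDAC3. The comparison asks how transcripts of resting macrophages differ when GPS2 is lost.

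In GPS2KO macrophages 3 of the 7 genes rose, namely Fabp4 by 2.25-fold, Fabp5 by 1.45-fold and Cd36 by 1.18-fold. No member fell, and Fabp3, Lpl, Plin2 and Angptl4 did not pass the test. Over all tested genes 6.72% passed in either direction, 2.9% rose and 3.83% fell. A call here means an adjusted p under 0.05 in limma, with Benjamini-Hochberg adjustment over all tested genes. The median change of the 7 members was 0.12 on the log2 scale, against -0.01 for all tested genes. The GPS2KO and WT arrays did not overlap for 5 members, all higher in GPS2KO, where 27.1% of the tested genes did not overlap and 11.9% did so with GPS2KO above WT. The groups had 3 arrays each, a number that limits the precision, and p-values cover the spread between these samples alone, part of which may be technical.

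Gps2 itself was lower on every GPS2KO array, at 10.29, 10.16 and 10.19 on the log2 scale, against 10.94, 10.93 and 11.00 on the WT arrays. It fell by 0.75 (SE 0.0472; limma adjusted p = 0.000256), so 59.7% of the WT signal was left. Probes outside a deleted part would check nothing, and the labels do not give that part. Across genes, arrays of a group correlated at 0.9989 to 0.9991 and arrays of different groups at 0.9977 to 0.9981 (Pearson). Of 9 measured macrophage markers 0 were dim, a word used here for a mean under 5.49, below which 40% of the tested genes lay. In bulk RNA, fewer cells of a type and less RNA per cell cannot be told apart.

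Fabp4, the carrier known from adipocytes and from lipid-laden macrophages, showed the largest change of the 7. Its log2 signal was 9.45, 9.38 and 9.50 on the GPS2KO arrays, against 8.21, 8.23 and 8.37 on the WT arrays. Every GPS2KO array lay above every WT array, and the gap between the nearest arrays of the groups was 1.01 log2 units. The means were 9.44 ± 0.06 in GPS2KO and 8.27 ± 0.09 in WT (SD, n = 3 each). The log2 change was 1.17 (SE 0.0562, 95% confidence interval 1.04 to 1.30; limma adjusted p = 0.000108), which ranked 10 among all rises. An exact 2-sided permutation test of the group means gave p = 0.1, and no smaller p is possible with 20 arrangements. The same p held for each member whose groups did not overlap.

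Fabp5, the carrier named for epidermis that macrophages also express, was measured by 3 probe sets. On the brightest the log2 signal was 12.37, 12.35 and 12.31 on the GPS2KO arrays, against 11.81, 11.76 and 11.85 on the WT arrays. The groups did not overlap there, and the GPS2KO arrays lay within 0.06 log2 units of each other. The log2 change was 0.53 (SE 0.0418, 95% confidence interval 0.44 to 0.63; limma adjusted p = 0.000479). This interval did not overlap that of Fabp4. The other probe sets of Fabp5 changed by similar amounts. On the next brightest, signals were 12.19, 12.17 and 12.13 in GPS2KO, against 11.63, 11.55 and 11.65 in WT, a change of 0.55 (SE 0.0418; limma adjusted p = 0.000672 over all probe sets with 1 symbol). The dimmest was at 6.38, 6.29 and 6.38 in GPS2KO, against 5.88, 5.91 and 5.65 in WT, a change of 0.53 (SE 0.0723; limma adjusted p = 0.00676). Over all such probe sets, 2.48% rose. RefSeq lists a pseudogene of Fabp5, Fabp5l2, so the probe sets of Fabp5 may share signal with a near-identical copy.

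Fabp3, the carrier known from heart muscle, did not pass. Its log2 signal was 6.82, 6.99 and 6.80 on the GPS2KO arrays, against 7.08, 6.84 and 6.91 on the WT arrays, and the groups overlapped. The change was -0.07 (95% confidence interval -0.25 to 0.10; limma adjusted p = 0.657), so the interval leaves room for a fall to 0.843-fold or a rise to 1.08-fold. The other probe set gave a change of 0.01 (SE 0.112; limma adjusted p = 0.974), with 6.84, 7.01 and 6.77 in GPS2KO, against 7.09, 6.85 and 6.66 in WT. The SD of its WT arrays, 0.22, was the largest of any group among the 10 probe sets. RefSeq also lists a pseudogene of Fabp3, Fabp3-ps1, so either probe set, the one that stands for Fabp3 included, may carry signal from that copy. Which copy each measures was not settled here, and the values are uncertain as levels of Fabp3.

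**Figure D1:**
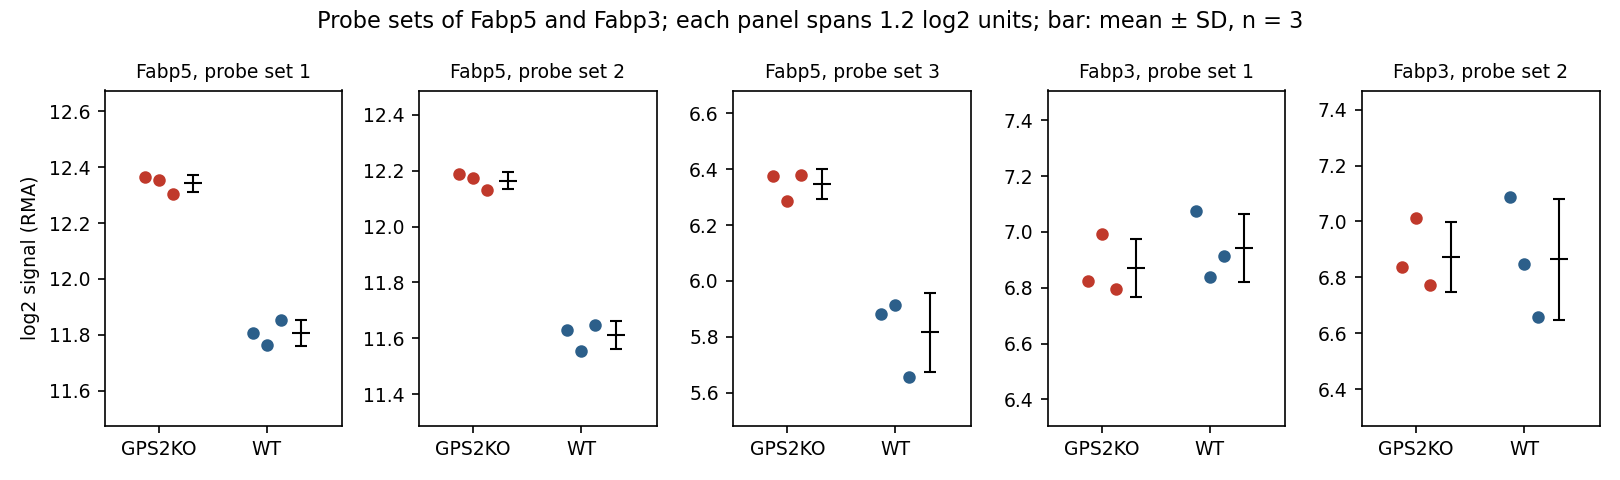
Log2 RMA signal of each array for the 3 probe sets of Fabp5 and the 2 of Fabp3, ordered by mean signal, with GPS2KO left of WT and the mean ± SD (n = 3) beside each group. The group means of the 3 Fabp5 probe sets differ by 0.53 to 0.55 with no overlap of arrays, while the groups overlap on each Fabp3 probe set.

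Of the 10 genes of the fatty acid-binding protein family, 2 rose, 0 fell and 8 did not pass. The median log2 change of the family was -0.03. Fabp7, the carrier known from brain, was at 11.54, 11.52 and 11.48 in GPS2KO, against 11.35, 11.42 and 11.49 in WT. Its change was 0.09 (limma adjusted p = 0.342), and the groups overlapped. The other 6 family members, Fabp1, Fabp2, Fabp6, Fabp9, Fabp12 and Pmp2, were dim in these cells, and their changes ran from -0.09 to 0.03. Fabp4 and Fabp5 lie in 1 cluster of the RefSeq gene order, with Pmp2, Fabp9 and the gene model Gm9833 between them and Fabp12 on the other side of Fabp4. Of the 16 tested genes nearest to Fabp4, 8 on each side, Fabp5 alone passed. Gm9833 was dim and differed by 0.31 (limma adjusted p = 0.114), and Impa1, the nearest gene on the far side that was not dim, by -0.06 (limma adjusted p = 0.495).

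Cd36, the surface receptor for fatty acids and oxidised lipoproteins, rose by a small amount. Its log2 signal was 12.47, 12.46 and 12.42 on the GPS2KO arrays, against 12.24, 12.20 and 12.18 on the WT arrays. The groups did not overlap, and their spread was narrow: the means were 12.45 ± 0.03 in GPS2KO and 12.20 ± 0.03 in WT (SD, n = 3 each). The change was 0.24 (SE 0.0383, 95% confidence interval 0.15 to 0.33; limma adjusted p = 0.00991), which is an increase of 18.4% on the linear scale. Across all 14 alternative settings its call was kept, with adjusted p up to 0.044. Cd36, Lpl, Plin2 and Fabp5 were bright, with group means from 11.81 to 12.60 where the highest value of the table was 13.99. Whether bright signals were compressed was not tested.

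Lpl, which encodes the lipase that macrophages secrete, was at 12.61, 12.59 and 12.60 on the GPS2KO arrays, against 12.50, 12.46 and 12.52 on the WT arrays. The groups did not overlap, but the nearest arrays lay only 0.07 log2 units apart. The difference was 0.11 (SE 0.0375, 95% confidence interval 0.02 to 0.20; limma adjusted p = 0.143), which did not pass. With a variance trend on mean signal it passed, at adjusted p = 0.00536. Plin2, perilipin 2, which coats lipid droplets in macrophages, was at 12.30, 12.33 and 12.32 in GPS2KO, against 12.21, 12.11 and 12.27 in WT. The groups were separated by 0.02 log2 units, and the WT arrays were spread more widely than the GPS2KO arrays. The difference was 0.12 (SE 0.0489, 95% confidence interval 0.0028 to 0.23; limma adjusted p = 0.229), which passed with a variance trend (0.0409). With that setting 5 members rose, where 4.92% of all tested genes did.

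Angptl4, a secreted inhibitor of LPL that fatty acids and low oxygen induce, did not pass. It was at 7.25, 7.13 and 7.03 on the GPS2KO arrays, against 7.00, 7.14 and 7.08 on the WT arrays. The groups overlapped, with the highest value on a GPS2KO array and the lowest on a WT array. The change was 0.06 (95% confidence interval -0.09 to 0.22; limma adjusted p = 0.639), an interval from 0.941-fold to 1.16-fold.

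**Figure D2:**
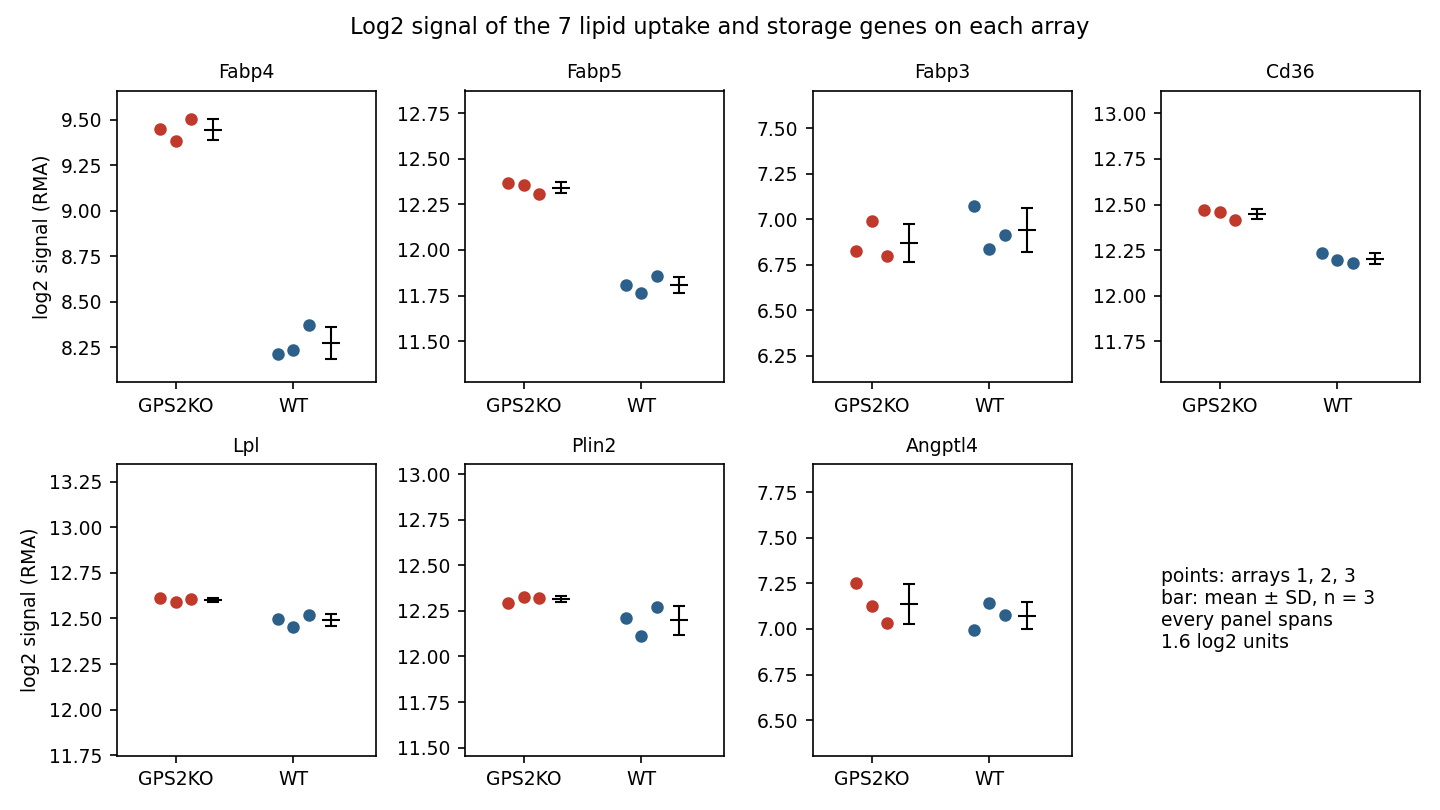
Log2 RMA signal of the 7 genes on each of the 3 GPS2KO and 3 WT arrays, with the mean ± SD (n = 3) beside each group; every panel spans the same height, so gaps can be compared between panels. The gap is widest for Fabp4 (1.01), smaller for Fabp5 (0.45) and Cd36 (0.18), and the groups overlap for Fabp3 and Angptl4.

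**Figure D3:**
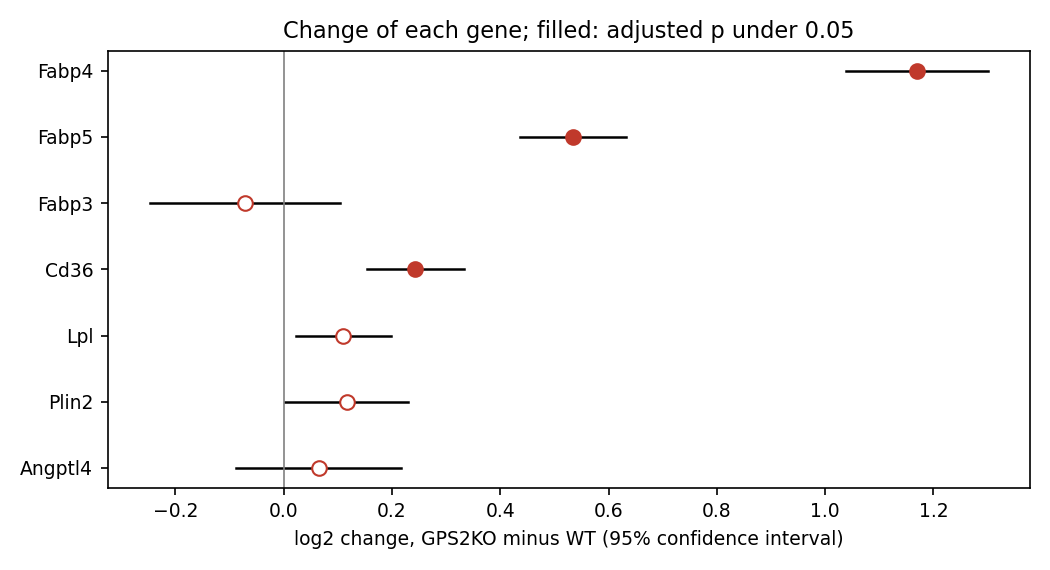
Log2 change, GPS2KO minus WT, of each gene with its 95% confidence interval from limma; filled points had an adjusted p under 0.05. Fabp4 (1.17), Fabp5 (0.53) and Cd36 (0.24) are filled, and the intervals of Fabp3 and Angptl4 span 0.

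Promoters of members are shown because PPAR-RXR heterodimers bind repeats of the motif AGGTCA. Windows from 250 bases before to 50 bases after the RefSeq transcription start in build GRCm38.p6 were read for Cd36 (chr5:17835847-17836146, minus strand), Plin2 (chr4:86670010-86670309, minus strand) and Fabp3 (chr4:130308488-130308787, plus strand). The sequences run 5′ to 3′ on the strand of the gene, and capitals mark that motif on either strand:
Cd36: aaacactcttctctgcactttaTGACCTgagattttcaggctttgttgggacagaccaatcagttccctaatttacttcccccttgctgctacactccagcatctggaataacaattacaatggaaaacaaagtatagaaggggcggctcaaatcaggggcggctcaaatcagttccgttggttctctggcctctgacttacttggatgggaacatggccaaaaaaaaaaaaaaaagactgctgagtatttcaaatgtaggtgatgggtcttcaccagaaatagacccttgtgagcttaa
Plin2: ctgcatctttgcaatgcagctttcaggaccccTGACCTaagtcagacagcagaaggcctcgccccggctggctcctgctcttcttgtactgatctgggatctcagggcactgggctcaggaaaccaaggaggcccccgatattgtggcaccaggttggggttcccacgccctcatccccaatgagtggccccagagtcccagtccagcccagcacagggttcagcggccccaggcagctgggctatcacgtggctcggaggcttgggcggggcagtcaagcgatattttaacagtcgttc
Fabp3: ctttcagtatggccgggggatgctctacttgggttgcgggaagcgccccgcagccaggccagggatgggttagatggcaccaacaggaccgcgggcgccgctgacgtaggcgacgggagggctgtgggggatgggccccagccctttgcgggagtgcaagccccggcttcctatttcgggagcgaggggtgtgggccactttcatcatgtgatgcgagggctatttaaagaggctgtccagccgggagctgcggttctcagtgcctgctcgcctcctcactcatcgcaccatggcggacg
The direct repeat AGGTCANAGGTCA, searched on both strands, had no match in these windows. It was found in 13 of 32851 RefSeq promoter windows of the same 300 bases, or 0.0396%. AGGTCA alone had 1 match on the opposite strand in Cd36, beginning at position -228 from the transcription start, and 1 in Plin2, beginning at -218. Fabp3 had none, and 16.3% of all windows had at least 1. TATAAA, a form of the TATA box, had no match in the 3 windows and was found in 13.6% of all. Such matches are letters in a window and were not tested as binding sites. No window was available for Fabp4, Fabp5, Lpl and Angptl4. Other forms of the repeat, and sites outside the 300 bases, were not searched.

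Of the PPAR and RXR genes, 1 of 6 fell and 0 rose. Pparg, which encodes the PPAR that drives Fabp4 and Cd36 in macrophages, was at 10.15, 10.12 and 10.13 in GPS2KO, against 10.30, 10.27 and 10.37 in WT. The groups did not overlap, and Pparg was lower in GPS2KO, opposite to Fabp4, Fabp5 and Cd36. Its change was -0.18 (SE 0.0408; limma adjusted p = 0.0461). That call ended without any 1 of the 6 arrays, at adjusted p from 0.0684 to 0.141. It also ended with a replicate block (0.0984), after quantile normalization (0.0563) and after centring on the median of the named genes (0.0888). Rxra, the partner receptor, was at 10.33, 10.34 and 10.37 in GPS2KO, against 10.24, 10.23 and 10.25 in WT, a difference of 0.10 (limma adjusted p = 0.149) that passed with a variance trend (0.0433). Ppard differed by -0.03 (limma adjusted p = 0.844) and Rxrb by -0.16 (limma adjusted p = 0.166). Ppara and Rxrg were dim, with differences of 0.03 and 0.05. Of 6 measured PPAR co-regulators, among them Ppargc1b and Med1, 0 passed, and their changes ran from -0.07 to 0.11.

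Of 12 other measured target genes of PPARs, 1 rose, 0 fell and 11 did not pass, with a median change of -0.02. The rise was that of Ehhadh, a peroxisomal enzyme of fatty acid oxidation, at 6.45, 6.22 and 6.31 in GPS2KO, against 5.95, 5.91 and 6.07 in WT. Its change was 0.35 (SE 0.0679; limma adjusted p = 0.0226). The call ended without GPS2KO replicate 1 or 3 or WT replicate 1 or 2, at adjusted p from 0.0562 to 0.0772. The 11 that did not pass differed by -0.28 to 0.13. The ends of that range were Olr1, a receptor for oxidised lipoprotein (limma adjusted p = 0.0909), and Pdk4, a kinase that holds back glucose oxidation (limma adjusted p = 0.158). Olr1 was at 6.32, 6.28 and 6.30 in GPS2KO, against 6.38, 6.63 and 6.72 in WT, with no overlap, and it passed without WT replicate 1 (adjusted p = 0.01). Slc25a20, which carries acylcarnitines into mitochondria, differed by -0.20 (limma adjusted p = 0.0664) with no overlap. It passed with a variance trend (0.0182), when dim genes were left out (0.0306) and when each array was centred on its median (0.0393). Olr1 and Slc25a20 were followed up after their values were seen.

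Among 15 other genes of fatty acid and lipoprotein uptake, 4 rose, 2 fell and 9 did not pass. Of all tested genes 2.9% rose and 3.83% fell. With a replicate block 0 of the 15 rose and 2 fell. The scavenger receptors Msr1 and Stab1 each rose by 0.21 on the log2 scale (limma adjusted p = 0.0194 and 0.0347). Msr1 was at 12.34, 12.31 and 12.32 in GPS2KO, against 12.13, 12.14 and 12.07 in WT, with no overlap. Msr1 lost its call when any array except WT replicate 2 was left out (adjusted p 0.0528 to 0.0716) and with a replicate block (0.0599). Stab1 lost its call for the same arrays (adjusted p 0.057 to 0.119) and with a replicate block (0.0719). The fatty acid transport proteins Slc27a3 and Slc27a6 rose by 0.22 and 0.27 (limma adjusted p = 0.0464 and 0.0486) from dim signals. Slc27a3 lost its call when any array was left out (adjusted p 0.0545 to 0.132). Slc27a6 lost its call when any array except GPS2KO replicate 1 was left out (adjusted p 0.107 to 0.15). Both also lost it after median centring (0.0612 and 0.0531), with robust variance (0.0529 for Slc27a6, and just above the threshold of 0.05 for Slc27a3) and with a replicate block (0.102 and 0.0857), and Slc27a3 with a variance trend (0.0747). Slc27a1 and Slc27a4, the members of that family that were not dim, differed by -0.03 and -0.02.

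Cav1, caveolin 1, the coat protein of membrane pits, fell most in that list. It was at 10.05, 10.18 and 9.95 in GPS2KO, against 10.65, 10.67 and 10.71 in WT, and the groups did not overlap. The change was -0.62 (SE 0.0617; limma adjusted p = 0.00139). Cxcl16, a transmembrane chemokine that also takes up oxidised lipoprotein, was at 11.70, 11.67 and 11.67 in GPS2KO, against 11.97, 12.00 and 11.97 in WT. It changed by -0.29 (SE 0.0362; limma adjusted p = 0.0033).

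Around Lpl and Angptl4, 15 partners and regulators of the lipase were measured and 0 passed, with changes from -0.25 to 0.16 and a median of -0.03. They included Apoc2, the cofactor of LPL, which differed by 0.16 (limma adjusted p = 0.255), and Lmf1, needed for its folding, which differed by -0.04 (limma adjusted p = 0.672). Furin, a protease that cleaves LPL, differed by -0.16 (limma adjusted p = 0.116), and its groups did not overlap. Apoe, the macrophage apolipoprotein, differed by 0.09 (limma adjusted p = 0.223).

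Around Plin2, 14 perilipins and other lipid droplet proteins were measured, Plin2 included, and 0 passed. Plin3, another perilipin of macrophages, was at 9.94, 10.00 and 9.91 in GPS2KO, against 9.94, 9.83 and 9.94 in WT, a difference of 0.05 (limma adjusted p = 0.635). Plin1, Plin4 and Plin5 differed by -0.13, 0.09 and 0.16, with Plin1 and Plin5 dim. Hilpda, a droplet protein induced by low oxygen, differed by 0.17 (limma adjusted p = 0.194), with no overlap between the groups. Of 13 genes of triglyceride synthesis, 1 rose, 0 fell and 12 did not pass. The rise was that of Lpin1, a phosphatidate phosphatase that is also a nuclear co-activator, at 8.20, 8.24 and 8.20 in GPS2KO, against 7.73, 7.58 and 7.62 in WT. It changed by 0.57 (SE 0.0488; limma adjusted p = 0.000692). Dgat1 and Dgat2, which make the last step of triglyceride synthesis, differed by -0.0034 and -0.21 (limma adjusted p = 0.973 and 0.411).

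Of 9 genes of lipolysis, 0 rose, 1 fell and 8 did not pass. Lipe, hormone-sensitive lipase, was at 9.25, 9.26 and 9.25 in GPS2KO, against 9.49, 9.44 and 9.44 in WT. Its change was -0.21 (SE 0.0371; limma adjusted p = 0.0172). The call ended when the mean of its 2 probe sets stood for the gene, at adjusted p = 0.243, and without any 1 of the GPS2KO arrays or WT replicate 1, at adjusted p from 0.0596 to 0.0679. It also ended with a replicate block, at 0.0612. Pnpla2, the triglyceride lipase of droplets, differed by -0.0042 (limma adjusted p = 0.966), and its activator Abhd5 by 0.15 (limma adjusted p = 0.1). Of 5 fatty acyl-CoA synthetases, which trap fatty acids in the cell, 0 passed, and their changes ran from -0.27 to 0.03. Over all 10 lists, with the members left out, 6 of 100 genes rose and 4 fell, 10% against 6.72% of all tested genes. With a replicate block 2 rose and 2 fell, 4 of the 100, where 862 of all 18820 tested genes passed. With 1 array left out 3 to 6 of the 100 passed, where 749 to 842 of all 18820 did. The share of the related genes was thus near that of all genes in these settings.

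**Figure D4:**
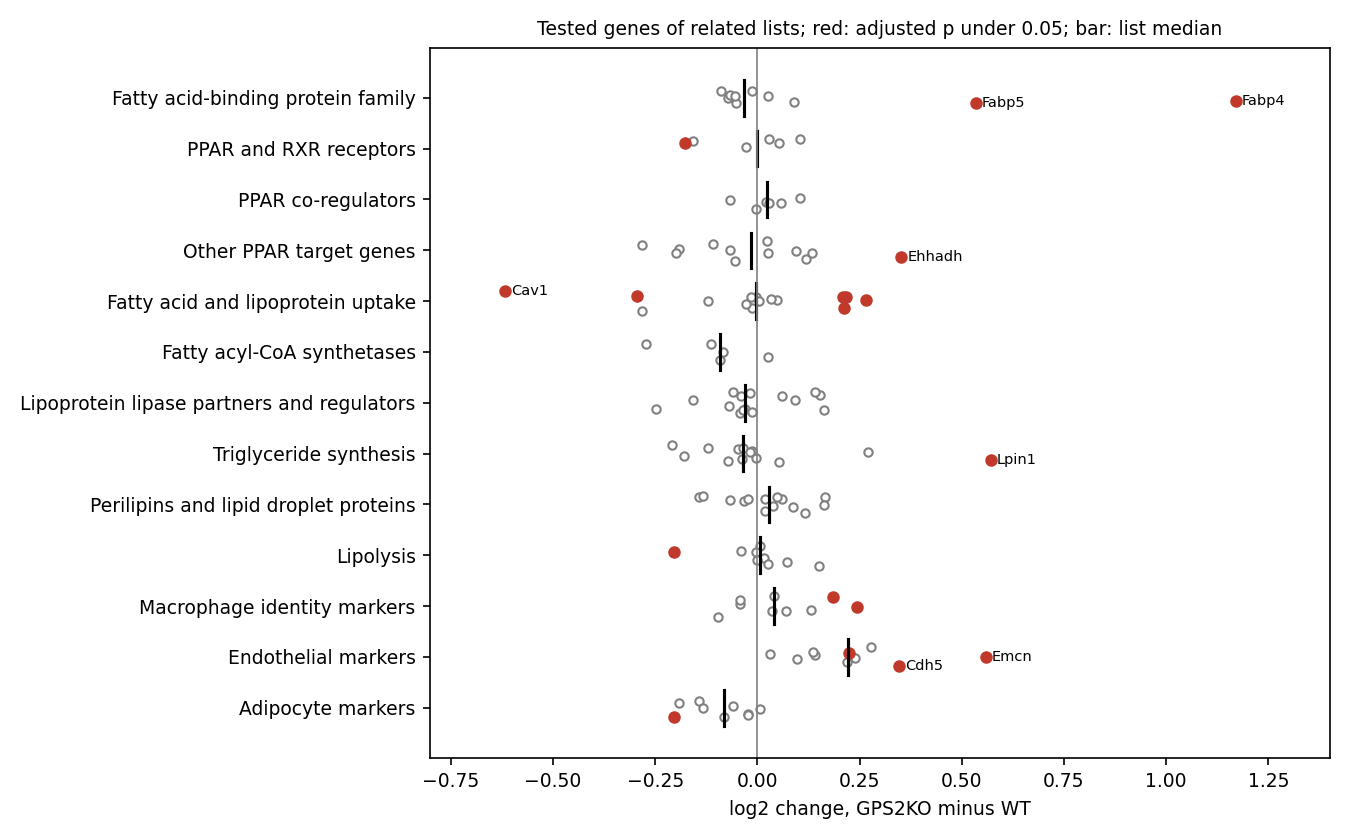
Log2 change, GPS2KO minus WT, of each tested gene in 10 lists of lipid handling and 3 lists of cell type markers; red points had a limma adjusted p under 0.05, and black bars mark list medians. Fabp4 and Fabp5 stand at the right of their family, whose median is -0.03, Cav1 at the left of the uptake genes, and the endothelial markers lie to the right of 0.

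Fabp4 and Cd36 are also expressed by adipocytes and by endothelium, and Lpl by adipocytes, so markers of those cells were read beside them. Of 9 adipocyte markers, 0 rose, 1 fell, namely Lipe, and 8 were dim, Adipoq, Lep and Plin1 among them. Their summed linear signal ran from 794.5 to 803.9 on the GPS2KO arrays, against 887.1 to 927.6 on the WT arrays. Lipe carried most of that sum, and its fall was lost with the mean of its probe sets, as given above. The 8 dim markers without it summed to 187.3 to 196.0 in GPS2KO, against 193.8 to 207.2 in WT, ranges that overlap. All 10 endothelial markers had higher means in GPS2KO, as did 46.4% of all tested genes. Of the 10, 3 rose, where 2.9% of all tested genes did, 0 fell and 7 did not pass. Their summed linear signal ran from 899.8 to 982.2 in GPS2KO, against 766.3 to 794.5 in WT, and Tek and Esam were dim. Emcn, endomucin, rose by 0.56 (limma adjusted p = 0.0041), at 7.75, 7.63 and 7.54 in GPS2KO, against 7.08, 7.19 and 6.98 in WT. Cdh5, the cadherin of endothelial junctions, rose by 0.35 (limma adjusted p = 0.0318), and Tie1 by 0.22 (limma adjusted p = 0.0349). The Cdh5 call ended without GPS2KO replicate 1 or 2 or WT replicate 1 or 3, at adjusted p from 0.0832 to 0.101, and that of Tie1 without any 1 of the arrays, at 0.0539 to 0.107. With a replicate block both calls ended (0.0747 and 0.0711), and that of Tie1 also after median centring (0.0529) and with a variance trend (0.0659). Pecam1, which myeloid cells also express, differed by 0.28 (limma adjusted p = 0.236). The part of endothelial RNA in the rises of Fabp4 and Cd36 was not tested.

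Markers of other cells that such cultures can hold moved less evenly. For comparison, 2.9% of all tested genes rose and 3.83% fell. Of 9 macrophage markers, 2 rose and 0 fell, Mertk by 0.24 and Itgam by 0.19 (limma adjusted p = 0.00991 and 0.0279), though Itgam lost its call when any array was left out (adjusted p 0.0557 to 0.1) and with a replicate block (0.0722). Of 10 fibroblast and stromal markers 1 rose (Dcn) and 3 fell (Col1a1, Pdgfrb and Thy1). That was 4 calls, against 1 with a replicate block and 1 to 3 without any 1 array. The summed linear signal of these 10 markers ran from 20987.4 to 21076.7 in GPS2KO, against 22107.5 to 22622.5 in WT. It was far larger than that of the endothelial markers, but the 2 sums come from different probe sets. They were not tested as amounts of RNA or of cells. Of the 10 fibroblast and stromal markers, 4 had higher means in GPS2KO. Of 5 platelet markers Pf4 rose and Ppbp fell, 2 calls, against 1 with a replicate block, 0 without GPS2KO replicate 1 or 2, and 1 without GPS2KO replicate 3 or WT replicate 2 or 3. Of 9 neutrophil markers 1 rose (Ngp), and that call ended without GPS2KO replicate 1 or 2 or WT replicate 2 or 3, at adjusted p from 0.052 to 0.0617. Of 10 dendritic cell markers 0 passed. Summed linear signals were also higher in GPS2KO, without overlap, for 3 of these lists. Macrophage markers summed to 48410.5 to 48695.6 in GPS2KO, against 46709.9 to 48322.6 in WT. Platelet markers summed to 5868.5 to 5996.3, against 5165.7 to 5711.7, and neutrophil markers to 321.2 to 354.5, against 300.3 to 319.5. Pf4 carried most of the platelet sum, and it was the only 1 of the 5 platelet markers with a higher mean in GPS2KO. The median log2 change of those 5 was -0.11. Of the 9 neutrophil markers 7 were dim and 5 had higher means in GPS2KO, and Ngp changed most, by 0.46. The sums of the dendritic cell markers overlapped.

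The pattern of each member over the 6 arrays was set against 10895 other named genes that were not dim, by Pearson's r as a description. The arrays form 2 groups, so a high r mostly records the difference between them, and any gene with a large difference scores high. The genes most like Fabp4 were Tle3, a co-regulator known in adipocytes as a partner of PPAR gamma, and Arhgap25 (r = 0.9992 and 0.9990). Tle3 rose by 0.37 (limma adjusted p = 0.0019) and Arhgap25 by 0.49 (limma adjusted p = 0.000558). Most like Fabp5 were Atp6v0d2, a subunit of the vacuolar proton pump, and Vipas39 (r = 0.9999 and 0.9993). Atp6v0d2 rose by 1.01 (limma adjusted p = 0.000194). Most like Cd36 were Slc24a5 and Scamp1 (r = 0.9986 and 0.9972), most like Lpl were Rpl27a and Eif4a2 (0.9977 and 0.9972), and most like Plin2 were Vrk1 and Sptlc2 (0.9977 and 0.9913). For Fabp3 they were Sec22a and Clcn2 (0.9836 and 0.9826), and for Angptl4 Phkb and Nsdhl (0.9856 and 0.9808). As many as 384 genes had an r above 0.95 with Fabp4 and 394 with Fabp5, against 13 with Fabp3 and 16 with Angptl4, whose groups overlapped.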

How the data were processed

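RNA of 6 macrophage cultures, 3 GPS2KO and 3 WT, was measured on Affymetrix arrays, and the titles gave group and replicate. The deposited values are log2 signals per probe set, made by the authors with RMA in the R package oligo, per the submitters' processing notes; versions, array annotation and build are not given in the sources used here. Values ran from 2.42 to 13.99 and array medians from 5.57 to 5.60. RMA normalizes across arrays, which hides a change common to most genes. The table held 35556 probe sets, of which the platform annotation at GEO (it can be old) gave 21218 exactly 1 symbol and 1881 several, and did not list 12457. RefSeq (GRCm38.p6) matched 21185 of the 21218 by gene number.

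For each of 18820 genes the probe set with the highest mean entered limma 3.58.1 (R 4.3.3; lmFit, eBayes), with group as the only term, 2-sided, adjusted by Benjamini-Hochberg over all genes with a threshold of 0.05. No filter was applied to dim genes. The step was tested on simulated data. The members, and the 10 pathway and 7 marker lists, were chosen with earlier results of these data known. These lists held 184 symbols, of which 162 were tested and 22 not analysed here. The rule named all members, every pathway-list gene past the threshold, the receptors, the family and the perilipins by value, and the 2 most alike genes per member. Other genes, including those of marker lists, were named after their values were seen. Promoters are RefSeq's; 3 of the 7 members matched.

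Equal replicate numbers were checked for pairing: deviations from group means correlated at 0.0035, 0.026 and -0.006 for equal numbers. Other pairs of numbers gave -0.028 to 0.024. The labels do not say whether equal numbers share a batch. With 3 arrays per group and values normalized across arrays, these correlations cannot settle it.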

Additional observations from a re-analysis of the deposited data

How the results depend on the processing

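Fabp4, Fabp5 and Cd36 kept their direction and their call under all 14 alternatives, with changes from 1.14 to 1.22, from 0.51 to 0.56 and from 0.22 to 0.27. Fabp3 and Angptl4 passed in none, and Gps2 passed in all. With a variance trend, Lpl (0.11, adjusted p = 0.00536) and Plin2 (0.12, adjusted p = 0.0409) passed, which made 5 members, and 2174 genes and 16 related genes passed, against 1265 and 10. The cause was not tested. Without dim genes, where fewer genes are tested, 1962 passed. With replicate number as a block, which uses up residual degrees of freedom, 862 genes, 4 related genes and the same 3 members passed. Equal numbers did not correlate best in every case, and the block changed no call of a member. Leaving out 1 array gave 749 to 842 genes and 3 to 6 related genes, with fewer samples, and 3 members each time. With 1 array left out, differences changed sign for Ppara (-0.003 to 0.0588, below 0 without GPS2KO replicate 3), Ppard (-0.0775 to 0.0185, above 0 without GPS2KO replicate 2 and, at 0.0123, without WT replicate 3) and Rxrg (-0.0043 to 0.109, below 0 without GPS2KO replicate 1), none of which passed. Rises were 43.1% of all calls, but 30.2% after centring each array on its median and 53.7% after centring on the median of the named genes, a setting chosen after seeing the data. Arrays carry no read depth; signal over background limits the dim genes, and whether their fold changes were compressed was not tested.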
